A study of Mus musculus with 12 samples.

Results

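The arms of miR-219 and miR-338 were followed over 12 miRNA arrays of mouse retina and sclera. They were taken by name: of the 696 mouse miRNA names on the array, 3 begin with mmu-miR-219 or mmu-miR-338-, namely mmu-miR-219-5p, mmu-miR-338-3p and mmu-miR-338-5p. In the study, C57BL/6J mice wore a diffuser over the right eye from P24 for 10 days, which deprives the eye of form vision and makes it myopic, and the left eye was the control. Whole retina and whole sclera were taken at P34, which gave 4 groups: control retina, myopic retina, control sclera and myopic sclera. Each group held 3 pools of 3 eyes, with 1 array per pool, so that differences between single animals were averaged within a pool and 3 values stood behind each group. The arrays were scanned for total gene signal, the background-corrected intensity summed over the detected probes of a miRNA. Of the 696 names, 443 were detected on at least 1 array and 246 on all 12, and the 3 arms were among the latter. Detected names numbered 353 to 372 in control retina, 376 to 401 in myopic retina, 274 to 317 in control sclera and 290 to 317 in myopic sclera.

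In the mammalian nervous system, miR-219 and miR-338 are known from maturing oligodendrocytes, in which they repress transcripts that keep precursor cells dividing and so favour the formation of myelin. Both have also been described in neurons. The mouse retina holds ganglion cells, other neurons, astrocytes and Müller glia but no myelin, since ganglion cell axons become myelinated only behind the eye, and the optic nerve head lies within the scleral coat.

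The mature sequences are shown because the arms differ in their seeds and in how the probes read them. Capitals mark the seed, bases 2 to 8, and the sequences and positions are those of RefSeq in build GRCm38.p6.
mmu-miR-219-5p: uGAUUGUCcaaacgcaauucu
mmu-miR-338-3p: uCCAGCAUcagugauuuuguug
mmu-miR-338-5p: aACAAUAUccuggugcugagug

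The 3 seeds differ from each other, and no 2 of the sequences share a run of more than 5 bases. Of the 696 array names, 529 had a sequence in RefSeq, and 0 of these shared a seed with an arm. RefSeq lists the sequence of mmu-miR-219-5p as mmu-miR-219a-5p at 2 loci, Mir219a-2 at chr2:29845689-29845709 (minus strand) and Mir219a-1 at chr17:34025052-34025072 (minus strand). Mir219a-2 lies within the bounds of Cercam, and Mir219a-1 lies 303 bases from Ring1. The array cannot tell the products of the 2 loci apart. The arms of Mir338 come from 1 hairpin within the bounds of Aatk, a kinase gene expressed in the nervous system. The 3p arm lies at chr11:120014781-120014802 and the 5p arm at chr11:120014816-120014837, both on the minus strand.

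The tissue labels were checked against lists of miRNAs known from particular cell types. The summed signal of 11 neuronal miRNAs, led by mmu-miR-124-3p, was 29.5 times as high in control retina as in control sclera, and that of the 4 names of the retinal sensory cluster was 25.3 times as high. The summed signal of the mesenchymal and smooth muscle list, led by mmu-miR-199a-3p in sclera, was 0.0197 times as high. The labels thus matched their defining miRNAs. The sclera arrays were not free of neuronal signal: the neuronal sum was 5209, 6306 and 644 in the 3 control sclera pools and 3727, 1832 and 2769 in the myopic ones, against 109266 to 152886 in retina.

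The signal of mmu-miR-219-5p was 397, 434 and 508 in the 3 control retina pools and 460, 571 and 397 in the myopic retina pools. In control sclera it was 70.1, 89.9 and 17.7, and in myopic sclera 73.9, 64.7 and 41.8. Every retina array was therefore above every sclera array, the retina groups overlapped each other, and pool 3 of control sclera was the lowest of the 12. That array was also the dimmest as a whole: the 75th percentile of the signals of the 246 miRNAs found everywhere was 276, against 436 to 803 in the other sclera arrays and 1024 to 1414 in retina.

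The brightest arm was mmu-miR-338-3p, with signals of 780, 860 and 959 in control retina and 845, 1071 and 875 in myopic retina. Its signals were 237, 328 and 101 in control sclera and 231, 225 and 146 in myopic sclera. All 6 retina arrays again stood above all 6 sclera arrays, and the eyes of each tissue overlapped. It ranked at percentiles 79.6 to 81.8 among the detected miRNAs of the retina arrays and 63.5 to 71.9 on the sclera arrays.

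The dimmest arm, mmu-miR-338-5p, gave 123, 34.5 and 14.1 in control retina and 209, 277 and 131 in myopic retina. In sclera it gave 5.63, 9.86 and 4.60 in the control pools and 7.46, 6.33 and 5.62 in the myopic pools. The myopic retina pools were the highest 3 of the 12 arrays, the control retina pools were spread widely below them, and the sclera pools lay at the low end of what the arrays detected.

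**Figure D1:**
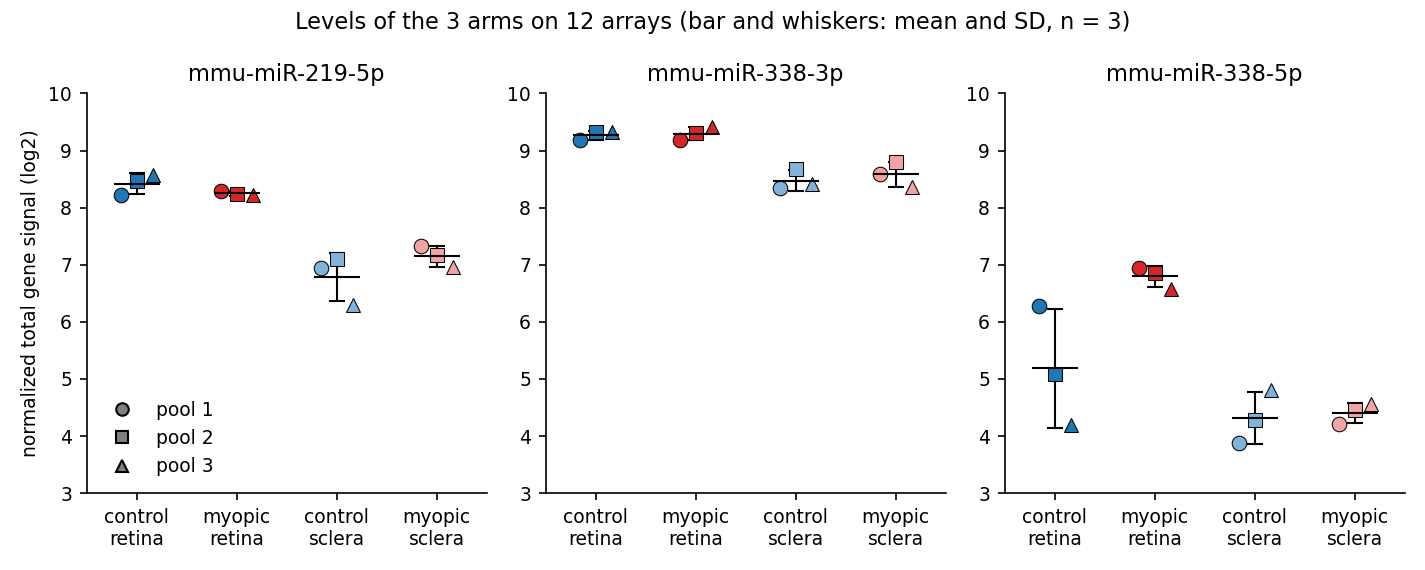
Normalized total gene signal (log2) of each arm on the 12 arrays, 1 panel per arm, with the mean and SD of each group (n = 3) and the pool number as the symbol. mmu-miR-219-5p and mmu-miR-338-3p are higher in retina than in sclera without overlap, and mmu-miR-338-5p is highest in myopic retina and scattered in control retina.

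After quantile normalization over all 696 names, the mean log2 level of mmu-miR-219-5p was 8.42 ± 0.18 (SD, n = 3) in control retina, 8.25 ± 0.04 in myopic retina, 7.15 ± 0.18 in myopic sclera and 6.78 ± 0.42 in control sclera. For mmu-miR-338-3p the order was myopic retina at 9.30 ± 0.11, control retina at 9.27 ± 0.08, myopic sclera at 8.59 ± 0.22 and control sclera at 8.48 ± 0.18. For mmu-miR-338-5p it was myopic retina at 6.79 ± 0.19, control retina at 5.19 ± 1.04, myopic sclera at 4.41 ± 0.17 and control sclera at 4.32 ± 0.46. Neighbours within a tissue overlapped for the first pair of arms, whose only clear step was from retina to sclera. For mmu-miR-338-5p only myopic retina stood without overlap from the rest, since control retina and sclera overlapped. Its difference from control retina did not pass the test (adjusted p = 0.134 by limma). Close neighbours traded places with the scaling: the retina groups of mmu-miR-219-5p and the sclera groups of mmu-miR-338-3p did so without scaling, and the retina groups of mmu-miR-338-3p with the 75th percentile. The authors' deposited log2 values gave the same orders: group means ran from 6.65 to 8.34 for mmu-miR-219-5p, from 8.41 to 9.21 for mmu-miR-338-3p and from 4.11 to 6.68 for mmu-miR-338-5p.

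The comparison of control retina with control sclera asked in which tissue these arms are higher, and for 2 of the 3 it was the retina. mmu-miR-219-5p was 3.11-fold higher in control retina, a log2 difference of 1.64 ± 0.21 (SE, n = 3 and 3), with an adjusted p of 8.65e-05 by limma. It was higher in each same-numbered pair of pools, by 1.27, 1.36 and 2.27. With normexp background the difference was 0.77 and the call was lost. mmu-miR-338-3p was 1.74-fold higher, a log2 difference of 0.80 ± 0.15 with an adjusted p of 0.00105 and pool differences of 0.84, 0.64 and 0.90, and so fell short of the 2-fold minimum set for a call. Although the arms are grouped under an oligodendrocyte label, their cells of origin were not tested, and they are named here by their stem. Where the optic nerve head and its cells went in the dissection was not tested. Fewer cells of a type and less miRNA per cell cannot be told apart in whole tissue.

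For mmu-miR-338-5p the control tissues overlapped after normalization: the log2 difference was 0.87 ± 0.45 (adjusted p = 0.123), and the pools differed by 2.39, 0.81 and -0.60. The outcome turned on single pools and on the scaling. Without pool 3 of control retina the difference was 1.34 (adjusted p = 0.0112) and called, and without pool 1 it was 0.33 (adjusted p = 0.427). Without scaling the signals of the control tissues did not overlap, and the difference was 2.62 (adjusted p = 0.00659) and called, as it was at 1.74 (adjusted p = 0.0146) from processed spot signals. With quantile normalization, then, 1 of the 3 arms was called higher in control retina. Among the 443 miRNAs tested, 27.5% were called higher there and 23.0% lower. The retina and sclera groups did not overlap, with retina higher, for 2 of the 3 arms and for 33.0% of all miRNAs tested.

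The same comparison in the form-deprived eyes placed all 3 arms higher in retina. mmu-miR-219-5p was 2.15-fold higher in myopic retina than in myopic sclera (log2 difference 1.103 ± 0.21, adjusted p = 0.00104), by 0.97, 1.07 and 1.26 in the 3 pools. mmu-miR-338-3p was 1.64-fold higher (0.71 ± 0.15, adjusted p = 0.00184), by 0.58, 0.51 and 1.04, again under the 2-fold minimum. mmu-miR-338-5p was 5.23-fold higher (2.39 ± 0.45, adjusted p = 0.00104), by 2.73, 2.42 and 2.02. Thus 2 of the 3 arms were called with quantile normalization, where 32.5% of all miRNAs tested were called higher in retina and 26.4% lower. All 3 arms had groups that did not overlap, as did 43.6% of the miRNAs tested with retina higher. A higher level in retina was common on these arrays, and the arms' counts are read against that background. If the call for mmu-miR-219-5p is taken without pool 3 of myopic sclera, its difference is 1.00 and just under 2-fold. With normexp background, whose offset shrinks differences, both calls were lost on the 2-fold minimum, at 0.53 for each arm. For mmu-miR-219-5p the adjusted p there was 0.000365 by limma. The signal of mmu-miR-338-5p was the sum of 4 probes in myopic retina and of 1 in sclera. From that 1 probe the difference was 0.92 after quantile normalization, which is under 2-fold. Without scaling, its mean signal in myopic retina was 9.24 times that in myopic sclera.

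The size of the retinal excess depended on how the arrays were scaled. Retina arrays were brighter, and without scaling the mean signal in control retina was 7.53 times that in control sclera for mmu-miR-219-5p, 3.90 times for mmu-miR-338-3p and 8.53 times for mmu-miR-338-5p. Over the 246 miRNAs detected on all arrays, the median log2 difference between control retina and control sclera was -0.24 after quantile normalization, 0.13 after scaling to the 75th percentile and 1.17 without scaling. Relative to that median, mmu-miR-219-5p was higher in control retina by 1.88 with the first of these and 2.03 with the others, and mmu-miR-338-3p by 1.04 and 0.95. In the myopic eyes the median was -0.32, 0.39 and 1.58, and relative to it mmu-miR-219-5p was higher by 1.43 under each scaling, mmu-miR-338-3p by 1.03 and 0.66, and mmu-miR-338-5p by 2.71 and 3.36. The direction was toward the retina throughout. mmu-miR-338-3p passed the 2-fold minimum in both comparisons under the 2 other scalings.

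**Figure D2:**
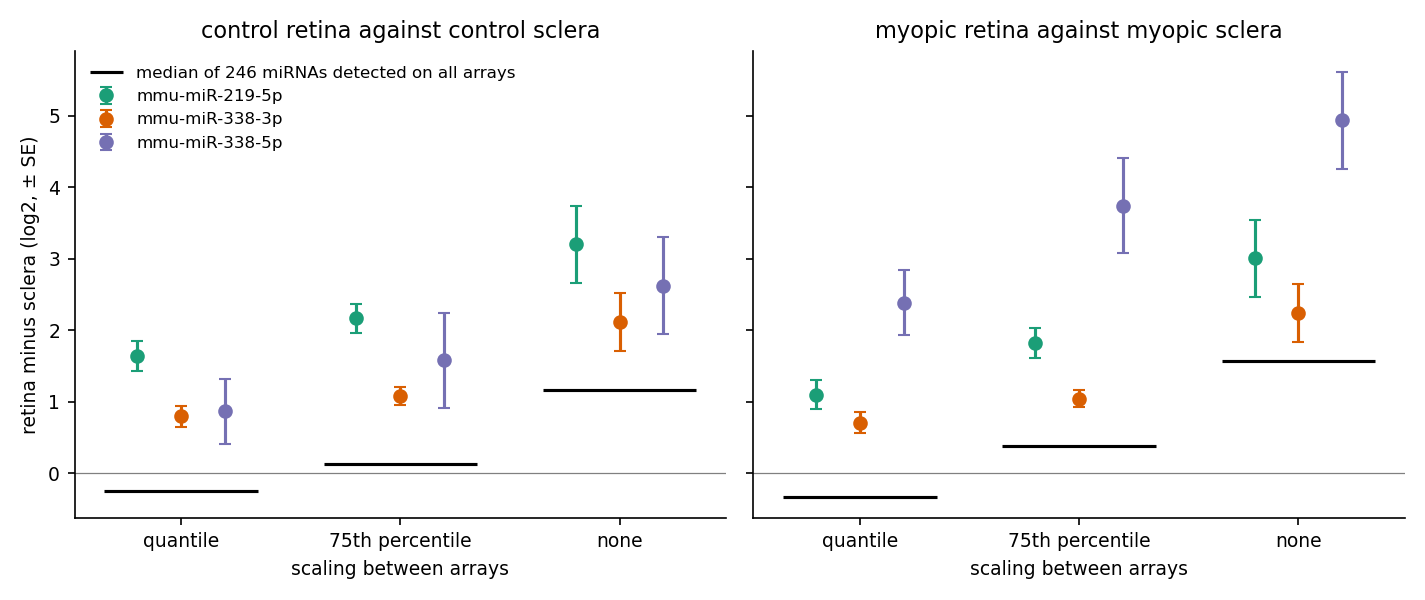
Log2 difference between retina and sclera (± SE, 3 against 3 arrays) of each arm under 3 ways of scaling the arrays, in control eyes (left) and myopic eyes (right), with the median of the 246 miRNAs detected on all arrays as a black bar. Every arm lies above the bar under each scaling.

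Form deprivation was compared within each tissue. In the retina, mmu-miR-219-5p differed by -0.17 ± 0.21 on the log2 scale (adjusted p = 0.692 by limma) and mmu-miR-338-3p by 0.02 ± 0.15 (adjusted p = 1). Each difference was less than the SD of the control retina pools, though for mmu-miR-219-5p not less than that of the myopic pools. The signs of these differences turned with the scaling: without scaling mmu-miR-219-5p differed by 0.08, and with the 75th percentile mmu-miR-338-3p differed by -0.01. mmu-miR-338-5p was 3.05-fold higher in myopic than in control retina, by 1.61 ± 0.45 (unadjusted p = 0.006 by limma, adjusted p = 0.134), and did not pass the test. The size depended on the processing, with 2.22 after the 75th percentile, 2.33 without scaling and 0.35 with normexp background, none called. It was higher in 3 of 3 pool pairs, by 0.67, 1.78 and 2.38, and the groups did not overlap, as was so with myopia higher for 5.19% of all miRNAs tested. The median of the miRNAs on all arrays moved by -0.21 in this comparison, so that mmu-miR-338-5p was 1.82 above it. With the pool number, which is also the slide, as a block in the model the difference was 1.61 (adjusted p = 0.14 by limma). The study picked mmu-miR-338-5p among its retinal miRNAs from these same arrays, so the values here are not independent evidence.

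By limma, 1 of 443 miRNAs was called between the retina groups, 0.226%, with 130 at an unadjusted p under 0.05, and an unmoderated linear model called 1, with 120. That miRNA was mmu-miR-145-5p, lower in myopic retina. With undetected signals raised to the dimmest detected one 0 were called. The count was also 0 with processed spot signals, normexp background, only the miRNAs detected on all 12 arrays or only the 6 retina arrays. With the authors' deposited values 0 were called higher and 2 lower. The control retina arrays resembled each other less than those of any other group, with pairwise correlations of 0.85 to 0.95 over 443 miRNAs against 0.98 to 0.99 in myopic retina. Pool 1 of control retina stood closest to the myopic pools in mmu-miR-338-5p. Without it the difference for mmu-miR-338-5p was 2.20 (adjusted p = 0.00117) and passed the test, and 66 miRNAs were called higher and 56 lower in all. Without pool 2 it was 1.54 (adjusted p = 0.308) and without pool 3, the lowest, 1.08 (adjusted p = 0.314), and neither passed. Array weights estimated by limma were 0.0793, 7.91 and 0.249 for pools 1, 2 and 3 of control retina, so the weighted control was mostly pool 2. In that fit the difference was 1.82 (adjusted p = 8.4e-06 by limma), and 83 miRNAs were called higher and 63 lower. Without pool 3 of myopic retina 9 were called higher and 4 lower.

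In the sclera, no arm passed the test between the eyes: the log2 difference of myopic from control sclera was 0.37 ± 0.21 for mmu-miR-219-5p, 0.11 ± 0.15 for mmu-miR-338-3p and 0.09 ± 0.45 for mmu-miR-338-5p, with an adjusted p of 1 for each. With each array left out in turn these ran from 0.13 to 0.52, from 0.01 to 0.22 and from -0.13 to 0.33. The groups overlapped for all 3 arms, while 2.93% of all miRNAs tested were higher in myopic sclera without overlap. Between same-numbered pools mmu-miR-219-5p was higher in myopic sclera in 3 of 3, by 0.38, 0.07 and 0.65, and each other arm in 2 of 3. Limma called 0 of 443 miRNAs, 0%, with 13 at an unadjusted p under 0.05, and the unmoderated linear model called 0, with 19. The change in retina minus the change in sclera was -0.53 ± 0.30 for mmu-miR-219-5p (adjusted p = 0.38), -0.09 ± 0.21 for mmu-miR-338-3p (adjusted p = 0.786) and 1.52 ± 0.64 for mmu-miR-338-5p (unadjusted p = 0.0409, adjusted p = 0.38). None of these passed the test, for which 1 miRNA of 443 was called, 0.226%, again mmu-miR-145-5p. With the pool number as a block 0 were called, and likewise with the deposited values, processed spot signals, normexp background or undetected signals raised. Without pool 1 of control retina the value for mmu-miR-338-5p was 2.12 and passed (adjusted p = 0.00959), and without pool 3 it was 0.99 and did not (adjusted p = 0.616). With array weights, which rested mostly on pool 2 of control retina, it was 1.47 and passed (adjusted p = 0.000596 by limma). It was 2.16 after the 75th percentile, 2.31 without scaling and 0.35 with normexp background, none called.

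The arms of the miR-338 hairpin are cut from the same precursor, and their measured ratio varied between arrays. Within each array the log2 level of the 5p arm minus that of the 3p arm was -2.91, -4.23 and -5.12 in control retina and -2.24, -2.44 and -2.83 in myopic retina. It was -4.45 to -3.62 in control sclera and -4.38 to -3.81 in myopic sclera. The 3p arm was thus the brighter on all 12 arrays, and the gap was narrowest in myopic retina. After quantile normalization the ratio moved from control to myopic eye by 1.58 ± 0.83 (SD, n = 3 pool pairs) in retina, 0.67 at the least. In sclera it moved by -0.03 ± 0.15, a spread given for that scaling only. The change in ratio was not tested, and in retina its size depended on the processing. Between the retina groups the 5p and 3p arms differed by 2.22 and -0.01 after the 75th percentile and by 0.35 and -0.05 with normexp background. Probes differ in how strongly they bind, so the gap does not give the ratio of molecules. The 5p value was also the signal of 1 probe in pool 3 of control retina and in sclera, and the sum of 4 on the other retina arrays. The 5p probe detected on all 12 arrays differed between the retina groups by 0.70 after quantile normalization.

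The probes showed on what the values for mmu-miR-338-5p rest. This arm is read by 4 probes of 12 to 15 bases on 5 spots each, which pair with the 3' end of the miRNA, the shortest with bases 11 to 22 and the longest with bases 8 to 22, so that only the longest reaches the seed printed above in capitals, at its last base. The probe of 14 bases was detected on all 12 arrays, with 38.8, 17.6 and 14.1 in control retina, 61.5, 78.9 and 38.9 in myopic retina and 4.60 to 9.86 in sclera. The probes of 12, 13 and 15 bases were detected on 0 of the 6 sclera arrays. In sclera and in pool 3 of control retina, mmu-miR-338-5p was therefore the signal of 1 probe.

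In myopic retina those 3 probes were well above background at all 5 spots of every pool. The probe of 15 bases gave 34.7, 7.58 and 3.35 in control retina, where pool 3 was not detected, and 56.5, 77.0 and 38.5 in myopic retina. The probe of 12 bases gave 22.8, 4.77 and 0.786 against 44.8, 58.1 and 24.5, and that of 13 bases 26.6, 4.63 and 1.59 against 46.3, 63.5 and 29.0. On all 4 probes pool 1 was the highest and pool 3 the lowest of the control retina. Every myopic pool lay above every control pool, though myopic pool 3 by little over control pool 1.

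When each probe was fitted by itself, a fit chosen after the probe signals were seen, the probe of 14 bases differed between myopic and control retina by 0.70 (adjusted p = 0.122 over 958 probes). The other 3 were undetected in pool 3 of control retina, so no difference is given for them. After quantile normalization the probe of 14 bases was 0.92 higher in myopic retina than in myopic sclera (adjusted p = 0.00208), which is under 2-fold. That size depended on the scaling: without scaling, its mean signal in myopic retina was 9.24 times that in myopic sclera. The other probes were undetected in sclera. After quantile normalization they were set against a lower bound from each myopic sclera array. This was the lowest signal among probes with at least as many spots well above background as not. Against it they were at least 1.78-fold, 1.99-fold and 2.64-fold higher in myopic retina for 12, 13 and 15 bases.

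**Figure D3:**
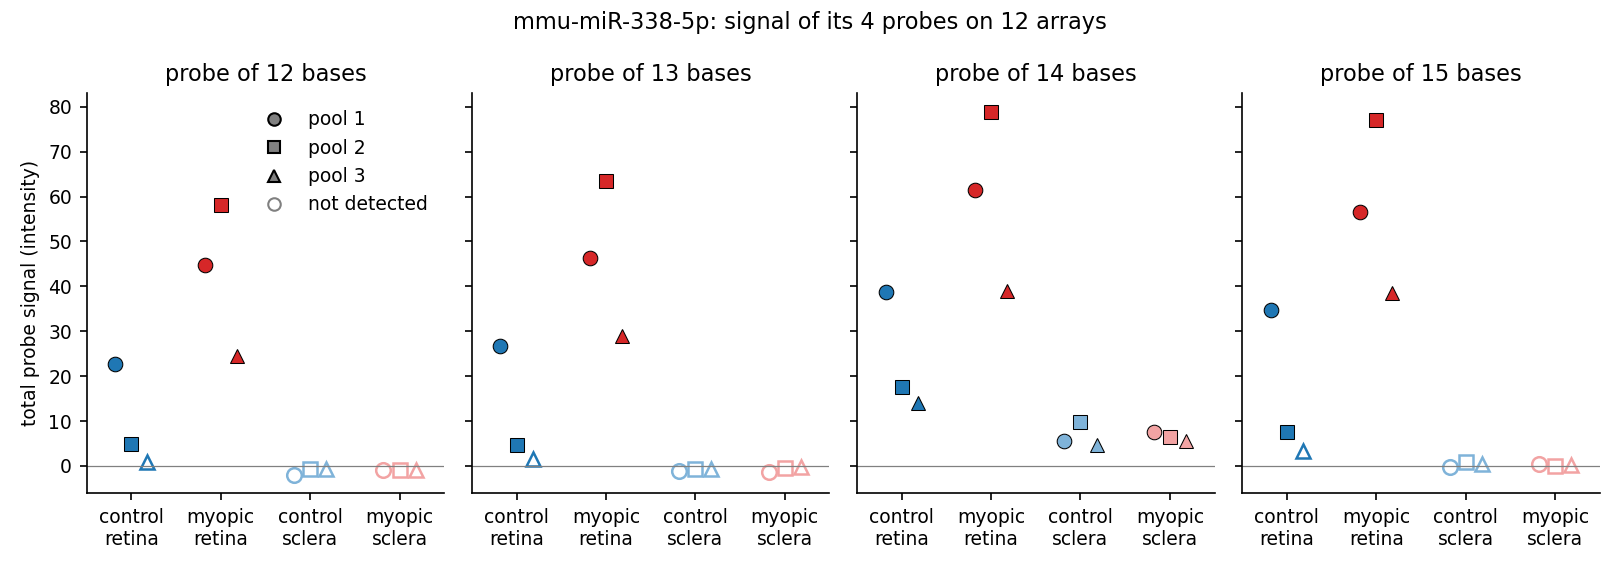
Total probe signal (intensity) of the 4 probes of mmu-miR-338-5p on the 12 arrays, with open symbols where a probe was not detected. Of the 4, the probe of 14 bases alone is detected in sclera, at 4.60 to 9.86, and all 4 are at 24.5 or more in every myopic retina pool.

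The probes of the other arms are longer. Both probes of mmu-miR-219-5p, of 20 and 21 bases, were detected on all arrays and gave differences of 1.55 and 1.71 between control retina and control sclera and of 1.09 and 1.22 in the myopic eyes. For mmu-miR-338-3p the probe of 21 bases carried most of the signal, with a mean of 742 ± 80.3 (SD, n = 3) in control retina against 124 ± 10.96 for the probe of 20 bases. After quantile normalization the longer probe differed by 0.94 (adjusted p = 0.000333) between the control tissues and by 0.85 (adjusted p = 0.00049) in the myopic eyes, and the shorter by 0.46 (adjusted p = 0.0245) and 0.17 (adjusted p = 0.347). This gap between the probes came with the normalization: without scaling, the mean signal in control retina was 3.91 times that in control sclera for the longer probe and 3.82 times for the shorter, and 4.64 and 4.63 times in the myopic eyes.

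Other miRNAs described in the oligodendrocyte lineage did not follow a common direction. Of 10 such names on the array, 9 were detected somewhere and mmu-miR-17-5p on no array, and between control retina and control sclera 2 were called higher in retina and 3 lower. The higher pair was mmu-miR-138-5p, undetected on all sclera arrays and at least 10.9-fold higher in control retina, and mmu-miR-7a-5p, which was undetected in pool 3 of control sclera and in the myopic eyes stood 4.56 higher in retina. The lower ones were mmu-miR-23a-3p at -3.40, mmu-miR-27a-3p at -2.66 and mmu-miR-125a-3p at -1.70. The members of the miR-17 cluster, which act on cell division, were near mmu-miR-338-3p in their difference, with 0.78 for mmu-miR-19a-3p, 0.98 for mmu-miR-19b-3p and 0.94 for mmu-miR-92a-3p, none called. mmu-miR-138-1-3p, detected on 4 arrays, all of retina, was not called (adjusted p = 0.0518). The median of the list was 0.78 and that of all 443 miRNAs -0.67 with undetected values raised to the lowest detected level of their array, and 0.94 and 0.30 with the floor of 0.5.

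In size, the arms' differences lay below the medians of the lists that define the tissues, apart from the pigment cell pair. Counts of calls in brackets come from the main fit, with the floor of 0.5. With undetected values raised in the same way, the median difference between control retina and control sclera was 3.60 over the 11 neuronal miRNAs (10 called higher), 3.82 over the retinal sensory cluster (4 of 4 higher) and 0.80 over the pair of pigment cell miRNAs (1 higher). It was -7.78 over 7 mesenchymal and smooth muscle miRNAs (6 called lower), -4.27 over 4 of striated muscle (4 lower), -5.25 over 8 of epithelium (7 lower), -2.04 over 7 of blood and immune cells (4 lower), and the endothelial arms mmu-miR-126-3p and mmu-miR-126-5p were both lower, at -1.85 and -2.14. At 1.64, 0.80 and 0.87 the arms leaned to the retina less than most neuronal names. The pigment cell pair was at 0.45 for mmu-miR-204-5p and 1.16 for mmu-miR-211-5p, below mmu-miR-219-5p and on either side of the other arms.

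**Figure D4:**
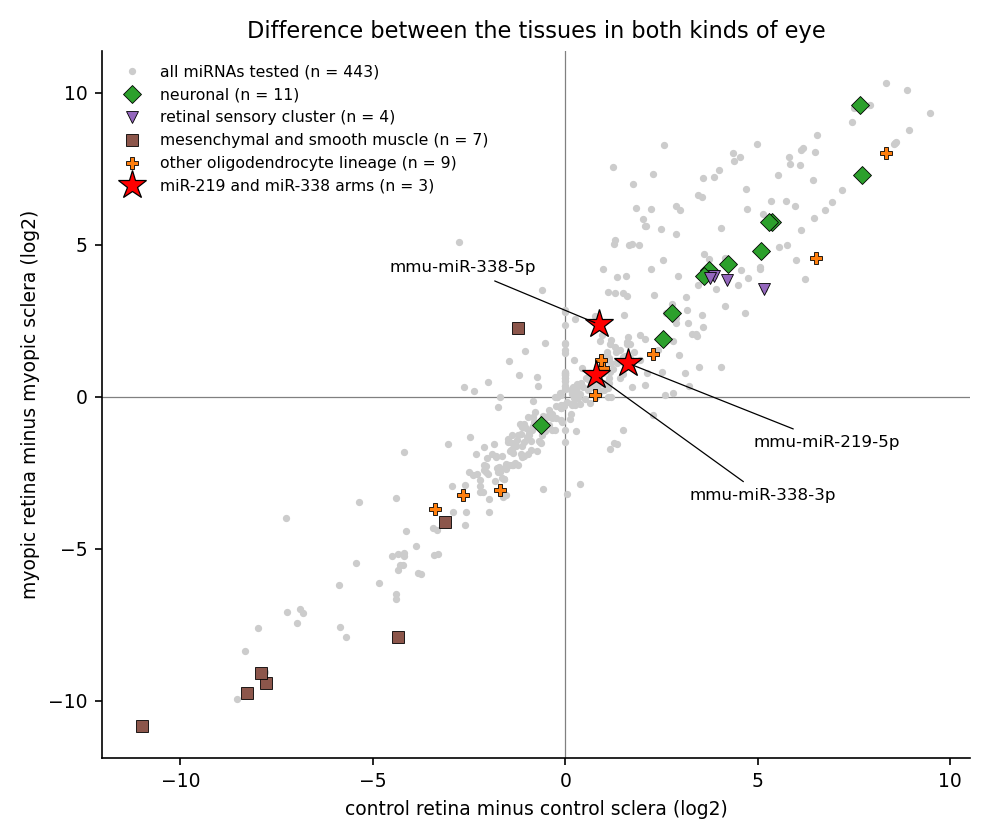
Log2 difference between retina and sclera in control eyes (x axis) and myopic eyes (y axis) for the 443 miRNAs tested, with undetected values at the floor of 0.5 before normalization; 4 marker lists and the 3 arms are drawn in colour. The arms lie in the upper right near the centre.

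The arms were set beside the lists within each tissue, as a description over 6 arrays. Each mean took only the names detected on all 12 arrays, 8 of 11 neuronal, 3 of 4 of the sensory cluster and 4 of 7 mesenchymal. In sclera, after quantile normalization, the correlation of mmu-miR-219-5p with the mean of the neuronal list was 0.68, with that of the sensory cluster 0.63 and with that of the mesenchymal list 0.99. For mmu-miR-338-3p the values were 0.11, -0.12 and 0.61, and for mmu-miR-338-5p they were -0.87, -0.72 and -0.59. Pool 3 of control sclera, the dimmest array, stood apart: mmu-miR-219-5p was 6.30 there against 6.94 to 7.32 on the other sclera arrays. For mmu-miR-338-5p that array had the lowest signal in sclera, 4.60, but the highest normalized value, 4.80. Correlations without that array were not computed. For mmu-miR-338-5p, in sclera the signal of 1 probe near the detection limit, the correlation was 0.64 with the blood and immune list and 0.48 with the pigment cell pair. With the same list and pair mmu-miR-219-5p gave -0.34 and -0.91, and mmu-miR-338-3p 0.57 and -0.56. The signs depended on the scaling: without scaling the values for mmu-miR-338-5p were 0.79, 0.69 and 0.83 with the neuronal, sensory and mesenchymal lists, and for mmu-miR-338-3p 0.94, 0.83 and 0.97. The part of retinal miRNA in their scleral signal was not tested.

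In retina, mmu-miR-338-5p ran opposite to the same kind of mean for several lists after quantile normalization, with correlations over 6 arrays of -0.96 for 4 of the 7 mesenchymal names, -0.96 for 5 of the 7 blood and immune names, -0.95 for the endothelial pair and -0.96 for 6 of the 10 other oligodendrocyte lineage names. It was -0.85 for the epithelial list, -0.82 for striated muscle, -0.69 for the pigment cell pair, -0.57 for the neuronal list and -0.03 for the sensory cluster. After the 75th percentile the first 4 lists gave -0.82, -0.56, -0.78 and -0.77. The neuronal list then gave -0.93, further from 0 than those 4, and the sensory cluster -0.36. Without scaling the values for those 4 lists were -0.69, -0.11, -0.07 and -0.35, and 0.17 and 0.04 for the neuronal list and the sensory cluster. After quantile normalization mmu-miR-219-5p ran with the same 4 lists, at 0.93, 0.87, 0.82 and 0.99, and mmu-miR-338-3p did so weakly, at 0.39, 0.49, 0.45 and 0.29. The summed mesenchymal signal was 266, 189 and 542 in control retina and 355, 499 and 290 in myopic retina, with 5 or 6 of the 7 names detected. Blood and immune miRNAs, led by mmu-miR-451, summed to 375, 416 and 531 and to 465, 737 and 485. The endothelial pair, led by mmu-miR-126-3p, summed to 1381, 1420 and 1610 and to 1337, 1770 and 1374. These unscaled sums did not separate the eyes. On the normalized scale of the correlations, with undetected values raised to the lowest detected level, the median difference of myopic from control retina was -1.42 over the mesenchymal list, -1.26 over blood and immune miRNAs, -1.45 over the epithelial list, -0.71 over striated muscle and -0.54 over the endothelial pair, against -0.30 over all 443 miRNAs. The names within a list went both ways: with the floor of 0.5 the median was -1.14 over the mesenchymal names, which ran from -3.85 to 3.66. It was -0.29 over the epithelial names, which ran from -1.63 to 3.22, and -0.48 over the blood and immune names, which ran from -1.38 to 0.26. Over all 443 miRNAs it was -0.12 with that floor. The mesenchymal list had 1 name called lower, mmu-miR-145-5p, and the other lists 0 called by limma. The part of other cell types in the values of mmu-miR-338-5p was not tested.

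The arms also differed from each other. Over the 12 arrays the correlation of mmu-miR-219-5p with mmu-miR-338-3p was 0.94, and within a tissue it was 0.19 over the 6 retina arrays and 0.55 over the 6 sclera arrays. These values depended on the scaling, with 0.51 and 0.50 after the 75th percentile and 0.90 and 0.97 without scaling. For mmu-miR-219-5p and mmu-miR-338-5p the correlation was 0.58 over 12 arrays, and over the retina arrays it was -0.93, with -0.64 after the 75th percentile and 0.02 without scaling. The pair made from 1 hairpin, mmu-miR-338-3p and mmu-miR-338-5p, gave 0.67 over 12 arrays and -0.27 over the retina arrays, with -0.58 and 0.02 under the other scalings. In retina, mmu-miR-338-5p thus ran opposite to mmu-miR-219-5p under both ways of scaling and not without scaling. With mmu-miR-338-3p the correlation was negative under both, but weak after quantile normalization, at -0.27.

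Among 351 miRNAs detected on at least 6 arrays, the 5 most like mmu-miR-219-5p over the 12 arrays were mmu-miR-218-5p, mmu-miR-15a-5p, mmu-miR-324-5p, mmu-miR-30e-5p and mmu-let-7g-5p, with correlations of 0.98 to 0.99. The 5 most like mmu-miR-338-3p were mmu-let-7g-5p, mmu-let-7f-5p, mmu-miR-128-3p, mmu-miR-300-3p and mmu-miR-410-3p, with 0.95 to 0.96. These ranks belong to quantile normalization: with the 75th percentile mmu-let-7f-5p ranked at 108, mmu-miR-300-3p at 55 and mmu-let-7g-5p at 30 for mmu-miR-338-3p, and mmu-miR-15a-5p at 25 for mmu-miR-219-5p. Without scaling mmu-let-7f-5p ranked at 65, mmu-miR-128-3p at 47 and mmu-miR-15a-5p at 31. Between the control tissues these were higher in retina, from 2.78 for mmu-miR-128-3p down to 0.18 for mmu-let-7f-5p, which did not pass the test (adjusted p = 0.115). Their likeness to the arms is what chose them.

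The 5 most like mmu-miR-338-5p were mmu-miR-500-3p, mmu-miR-1894-3p, mmu-miR-669n, mmu-miR-101a-5p and mmu-miR-467c-5p, with correlations of 0.89 to 0.95. The last pair of these was undetected on all 6 sclera arrays and stood there at the floor, so their correlations over 12 arrays rest in part on values that were not measured. Chosen for likeness on these same arrays, they also scattered in control retina, where their SDs were 1.12 to 1.82 on the log2 scale against 0.10 to 0.43 in myopic retina. mmu-miR-500-3p stood at 10.28, 8.57 and 8.19 in control retina and 10.13, 10.08 and 9.94 in myopic retina. None of the 5 passed the test between the retina groups (adjusted p 0.134 to 0.188). What made the control pools differ was not tested.

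**Figure D5:**
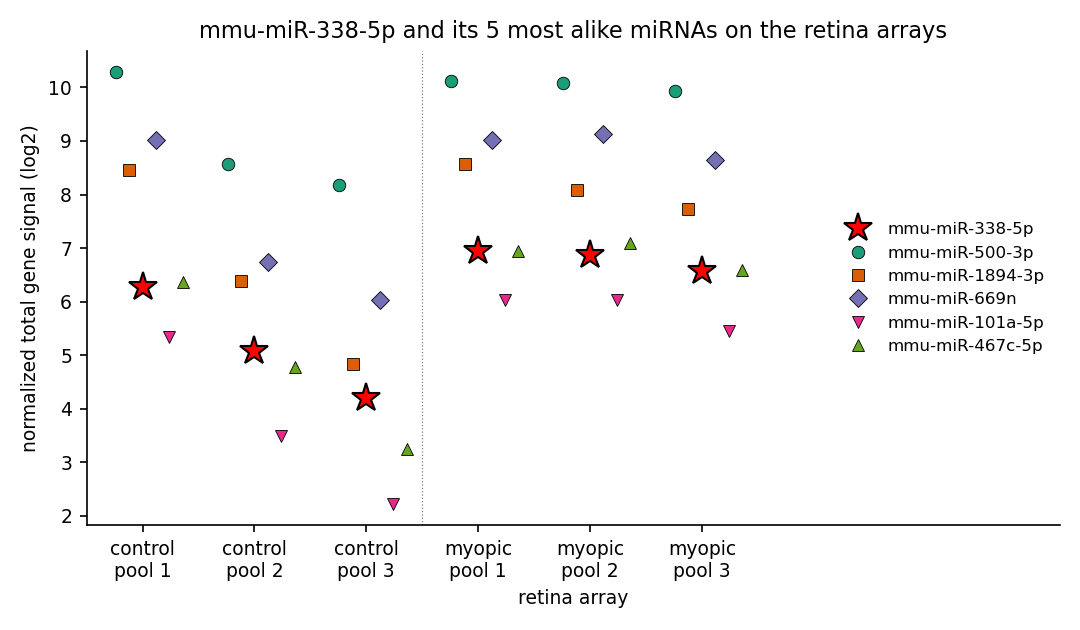
Normalized total gene signal (log2) of mmu-miR-338-5p and the 5 miRNAs most correlated with it over 12 arrays, shown on the 6 retina arrays. Each is high in pool 1 and low in pool 3 of control retina, and the 3 myopic pools lie close together.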

How the data were processed

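The files hold scanner output of 1-colour arrays for 12 samples. Per the file headers, the authors extracted signals with Feature Extraction 11.0.1.1 as background-corrected intensity, and a gene counts as detected when a probe exceeds 3 times its error. The authors' deposited value table is in log2 units, made with Partek 6.6; it holds 437 mouse miRNAs, left after the authors removed absent features and outliers by a rule whose cutoffs are not given, with a median of 5.74 on each array, and correlates at 0.999 with the values computed here (median absolute difference 0.123). No miRNA spot was saturated.

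Signals below 0.5 were set to 0.5 (undetected genes are listed at 0.1), quantile normalized over 696 names and 12 arrays and taken to log2. The 443 miRNAs detected on at least 1 array were fitted in 1 model of 4 groups with limma 3.58.1 in R 4.3.3 (8 residual degrees of freedom, 2-sided, Benjamini-Hochberg over 443); a call needed an adjusted p under 0.05 and a 2-fold difference. Other steps used Python 3.11.15, numpy 2.4.6, pandas 2.3.3, scipy 1.17.1 and matplotlib 3.10.9. The 5 comparisons share arrays. Named miRNAs are the 3 arms, the 5 most correlated with each among those detected on at least 6 arrays, and from each of 9 cell type lists its counts and up to 3 names with the largest difference between the control tissues (for the oligodendrocyte list, all); mmu-miR-145-5p was named after its values were seen. Members and lists were chosen with earlier results of these data known.

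Alternatives were 2 scalings, quantile normalization within each tissue, 2 floors, processed spot signals, normexp background with an offset of 50, the deposited values, 2 filters, no moderation, array weights, only the 6 arrays compared, a replicate block, each array left out, and single probes, the last chosen after seeing the data. Each slide held 1 array of each group with the same pool number, so slide and pool number cannot be told apart, and each group sat at the same position of every slide, so position and group cannot be told apart. Same-numbered pools are tied by the mouse identifier in the labels; over 18 pairs of same-numbered arrays from different groups, deviations from the group means correlated at -0.27 to 0.40, with a median of -0.004 and 4 above 0.1. The sources name the samples both as single mice and as pools; pools were followed. The number of arrays limits the precision.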

Additional observations from a re-analysis of the deposited data

How the results depend on the processing

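For the 3 arms in 5 comparisons, 393 values were computed under the alternatives: 366 kept their direction and their side of the threshold, 5 lost the call, 11 gained it and 11 changed sign. For other named miRNAs, of 1247 values 1173 kept both, 15 lost the call, 59 gained it and 0 changed sign.

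Without scaling, mmu-miR-219-5p between the retina groups was 0.085. mmu-miR-338-3p was -0.019 between the sclera groups, 2.12 and 2.24 between the control and the myopic tissues and 0.12 for the difference in change. Also without scaling, mmu-miR-338-5p was 2.62 between the control tissues, where it gained the call, and 4.94 between the myopic tissues. It was 2.33 between the retina groups and 2.31 for the difference in change. With the 75th percentile, mmu-miR-338-3p was -0.0066 between the retina groups and 1.08 and 1.05 between the tissues. Under that scaling mmu-miR-338-5p was 2.22 between the retina groups, 1.58 and 3.75 between the control and the myopic tissues and 2.16 for the difference in change. With normexp, mmu-miR-219-5p was 0.77 and 0.53 between the tissues, under the 2-fold minimum, and lost both calls. In that setting mmu-miR-338-3p was -0.045 between the retina groups. There mmu-miR-338-5p was -0.0033 between the sclera groups, and 0.35 between the retina groups and for the difference in change. Between the myopic tissues it was 0.53, also under the 2-fold minimum, and the call was lost. With array weights, mmu-miR-338-3p was -0.079 between the retina groups. In the same fit mmu-miR-338-5p was 1.82 there and 1.47 for the difference in change and gained both calls. These weights placed control retina mostly on pool 2, at 7.91 against 0.0793 for pool 1 and 0.249 for pool 3. From processed spot signals mmu-miR-338-5p was 1.74 between the control tissues, and from its brightest probe 0.92 between the myopic tissues. The cause was not tested.

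With each array left out in turn, mmu-miR-219-5p between the myopic tissues ran from 1.00 to 1.17. mmu-miR-338-3p ran from -0.024 to 0.087 between the retina groups and from -0.19 to 0.017 for the difference in change. mmu-miR-338-5p ran from 1.08 to 2.20 between the retina groups, -0.13 to 0.33 between the sclera groups, 0.33 to 1.34 between the control tissues and 0.99 to 2.12 for the difference in change.

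With the pairing of pools as a replicate block, mmu-miR-338-5p between the retina groups was 1.61 with an adjusted p of 0.14 and uncalled as before; the block changed no call of an arm, and calls for the difference in change went from 1 to 0. These calls, higher and lower, were 62 and 50 without pool 1 of control retina, 8 and 1 without pool 3 of myopic retina and 86 and 70 with array weights. Between the sclera groups limma called 1 miRNA in place of 0 with array weights and without pool 2 or 3 of control sclera or pool 1 of myopic sclera. Calls higher and lower in control retina than in control sclera were 160 and 81 with the 75th percentile, 224 and 44 without scaling, 31 and 36 with normexp and 45 and 83 among miRNAs on all arrays; in the myopic eyes they were 196 and 82, 266 and 42, 36 and 39, and 44 and 95. Quantile normalization within each tissue gives no value between tissues. Signals of mmu-miR-338-5p in sclera lay near the detection limit.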
